A study of Mus musculus with 6 samples.

Results

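The genes described here are 10 contractile and actin cytoskeleton genes that are known targets of serum response factor (SRF), with Srf itself among them. They were chosen by gene symbol, with earlier results of these data known. Of these, 9 were among the 16472 genes of the authors' deposited table, and an adjusted p was listed for 8 of them and for 13597 genes in all. The expression of Myl9, which encodes a myosin regulatory light chain, was not analysed here. HT22 cells are an immortalised line of mouse hippocampal origin that serves as a neuronal model, and AA147 is a compound known to activate ATF6, a sensor of misfolded proteins in the endoplasmic reticulum, and NRF2, a regulator of antioxidant genes. The cells received AA147 or the vehicle DMSO for 16 h, with 3 mRNA libraries per group and no other difference between the groups in the labels. An AA147 dose given in the labels is not reported here. The labels do not say whether the 3 libraries came from separate cultures, so the p-values measure the spread between these libraries, which may be technical. The comparison asks whether transcripts of the contractile programme differed between AA147 and vehicle.

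SRF is a transcription factor that binds the CArG box, a short element of A and T letters between a pair of C and a pair of G letters. It acts with cofactors of the MRTF family, which free actin monomers hold in the cytoplasm and which enter the nucleus when actin polymerises, so that actin and its binding proteins are both the input and the output of this system. With the ETS factors of the ELK family, SRF also drives immediate early genes downstream of ERK. Its contractile targets define smooth muscle cells and myofibroblasts, and in neurons SRF is known for roles in activity-dependent expression and neurite growth.

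The authors' deposited table lists each gene once and gives no values by library, so neither the depth of a library nor the spread of its replicates could be seen. Levels are the authors' mean normalized counts over the 6 libraries. Differences are the authors' log2 fold changes with their standard error (SE), and the 95% intervals were computed from that SE. The table does not name the numerator. Positive values are read as higher with AA147, and all directions rest on this reading. A gene is called changed at an adjusted p under 0.05. Among the neuron markers, 3 of 14 were in the authors' deposited table, namely Tubb3 with a mean of 1199, Eno2 with 62.1 and Slc17a7 with 3.93. Among the mesenchymal markers, such as collagens and PDGF receptors, 8 of 9 were in the table, with means from 181 to 254004. Of 5 markers each for astrocytes, oligodendrocytes, microglia and endothelial cells, 2, 2, 2 and 3 were in the table. In the same order, their means ran from 27.4 to 927, 2.00 to 28.8, 1.71 to 433 and 4.96 to 5.77.

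None of the contractile and actin genes passed the test. Calls numbered 0 of the 8 members with an adjusted p, beside 20.2% of all genes tested in the authors' deposited table. With only 8 genes, this count was not tested against that share. An unadjusted p under 0.05, from the DESeq2 columns of that table, was found for 0 of the 9 members, and the lowest was 0.164. Of the 9 values, 4 were positive and 5 negative. For the 7 members with a mean of at least 100, every log2 fold change lay between -0.07 and 0.08, and every 95% interval lay between -0.22 and 0.25. The intervals of Tagln and Cnn1 were far wider and include changes of more than 1 on the log2 scale in either direction. RNA came from whole cultures, so fewer cells of a type and less RNA per cell cannot be told apart.

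**Figure D1:**
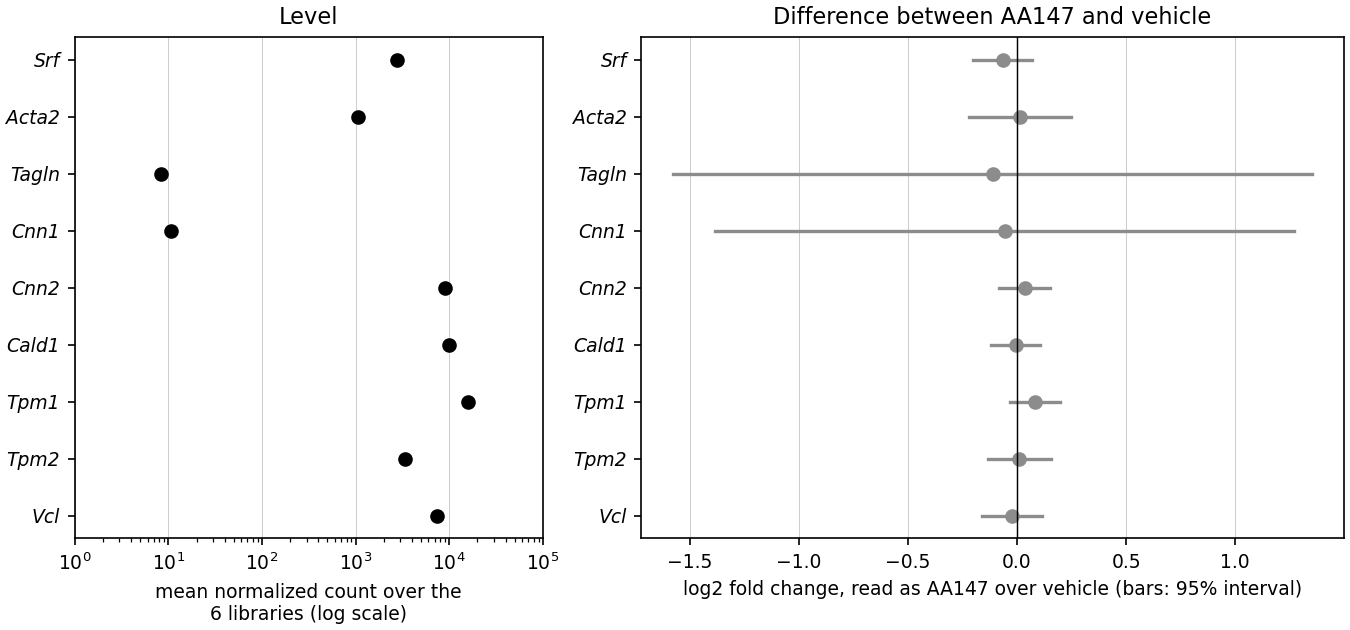
Left, the mean normalized count of each gene over the 6 libraries on a log axis; right, its log2 fold change (point) with the 95% interval (bar), read as AA147 over vehicle. All 9 intervals include 0, those of the 7 abundant genes are narrow, and those of Tagln and Cnn1, with means of 8.37 and 10.7, reach beyond 1 on either side.

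Srf, the regulator itself, had a mean of 2785 normalized counts in the authors' deposited table. Its log2 fold change was -0.07 (SE 0.070, 95% interval -0.20 to 0.07, adjusted p 0.578), which spans changes from -13.2% to 5.02%. Taken at face value, the authors' mean and fold change imply 2849 normalized counts with vehicle and 2721 with AA147. Srf is itself a known target of its protein, through CArG boxes in its promoter.

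To show where the element lies in the 10 genes, promoters from 250 bases before to 50 bases after the start were read from the RefSeq table for mouse assembly GRCm38.p6, by gene symbol. Of these, 9 had an entry, Cald1 with a pair of starts. A CArG box (10 letters, a core of 6 A or T letters; the pattern reads the same on both strands) was found in 4 of the 9, which were Srf, Cnn2, Vcl and Myl9. It was found in 1.63% of all 32851 promoters in that table. Acta2 held a pair of CArG-like boxes with 1 G or C letter in the core, a form found in 8.5% of all promoters. The windows of Tpm1, Tpm2, Cald1 and Cnn1 held neither. A match is a description of the letters, and no factor's binding was measured. The stretches below run 5′ to 3′ on the gene's strand, with the boxes in capitals, and they end before the RefSeq start.
Srf, chr17:46556200-46556259, minus strand: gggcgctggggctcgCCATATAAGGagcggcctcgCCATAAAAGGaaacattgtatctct
Cnn2, chr10:79988519-79988578, plus strand: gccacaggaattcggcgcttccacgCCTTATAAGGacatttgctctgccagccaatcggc
Vcl, chr14:20929148-20929207, plus strand: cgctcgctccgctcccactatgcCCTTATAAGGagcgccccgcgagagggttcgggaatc
Acta2, chr19:34255438-34255467, minus strand: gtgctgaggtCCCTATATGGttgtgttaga
Acta2, chr19:34255388-34255417, minus strand: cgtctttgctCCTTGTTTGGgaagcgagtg
The boxes of Srf began at positions -82 and -62, counted from -1 as the last base before the start. Cnn2 and Vcl held the same 10 letters, at positions -56 and -227. The CArG-like boxes of Acta2 began at positions -84 and -34.

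Acta2 encodes smooth muscle alpha-actin, the actin of stress fibres in myofibroblasts. The authors' deposited table gave it a mean of 1050.4 and a log2 fold change of 0.01 (SE 0.12, 95% interval -0.22 to 0.25, adjusted p 0.957). Its implied levels were 1045 with vehicle and 1056 with AA147. Its SE was 1.34 times the median SE of the 500 genes nearest to it in mean, so this is the least precise of the abundant members. Actins are similar in their coding sequence, and how the authors assigned any reads shared between them is not given in the sources used here. Acta2 also shares 9.33% of its exon bases with Stambpl1 on the opposite strand (GENCODE M39), and the libraries were not stranded. Stambpl1 had a log2 fold change of 0.04 (SE 0.090) per the authors' deposited table.

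Tagln and Cnn1, which encode transgelin and calponin 1 and mark differentiated smooth muscle, were near the lower end of the table. Tagln had a mean of 8.37 and Cnn1 one of 10.7 normalized counts in the authors' deposited table, and 17.4% and 19.7% of the genes listed had a lower mean. Their log2 fold changes were -0.11 (SE 0.75, 95% interval -1.57 to 1.35) and -0.06 (SE 0.68, 95% interval -1.38 to 1.27). A change of less than 1.74 in Cnn1 on the log2 scale could not have been called at this depth, and Tagln had no adjusted p. Reads of overlapping genes cannot be told apart in libraries without strand. Cnn1 shares 35.1% of its exon bases with Elof1 on the opposite strand, which had a mean of 855. Tagln shares 60.7% with the long noncoding RNA Gm48529, for which no value is given here, and 6.02% with Pcsk7, which had a mean of 1648, both on the opposite strand.

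Cnn2, a calponin found outside muscle, was abundant, with a mean of 8907 normalized counts in the authors' deposited table. Its log2 fold change was 0.03 (SE 0.060, 95% interval -0.08 to 0.15, adjusted p 0.763), from an implied 8802 with vehicle to 9013 with AA147. Cald1 encodes caldesmon, which binds actin and tropomyosin and restrains myosin. It had a mean of 9924 and a log2 fold change of -0.0053 (SE 0.057, 95% interval -0.12 to 0.11, adjusted p 0.968) per the authors' deposited table. These bounds correspond to changes of -7.84% and 7.72%, the narrowest interval among the members. Of the 500 genes nearest in mean, 39.6% were called for Cnn2 and 38.6% for Cald1, so calls were common at these levels.

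The tropomyosins Tpm1 and Tpm2 encode coiled-coil proteins that lie along the actin filament. Tpm1 had a mean of 15685, or 7162 per kilobase of transcript, the highest level per kilobase among the members, and the largest difference among the abundant ones, 0.08 on the log2 scale (SE 0.059, 95% interval -0.03 to 0.20, adjusted p 0.366) per the authors' deposited table. With a trend on transcript length, GC content and mean subtracted, its value was 0.14 and still not called (adjusted p 0.0698). Tpm2 had a mean of 3349 and a log2 fold change of 0.01 (SE 0.074, 95% interval -0.14 to 0.16, adjusted p 0.949) per the authors' deposited table. Both genes, like Cald1 and Vcl, produce muscle and non-muscle transcripts, and the values per gene do not separate them.

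Vcl encodes vinculin, which links integrin and cadherin adhesions to actin. The authors' deposited table gave it a mean of 7402 and a log2 fold change of -0.02 (SE 0.070, 95% interval -0.16 to 0.11, adjusted p 0.879). The implied levels were 7460.3 with vehicle and 7345 with AA147. Vcl shares 24.6% of its exon bases with Ap3m1 on the opposite strand, whose log2 fold change was 0.16 (SE 0.10) per the authors' deposited table.

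The abundant members were measured precisely enough for small changes to be called. Given their SEs and the largest unadjusted p that was called in the authors' deposited table, 0.00999, the smallest change that could have been called ran from 0.15 for Cald1 to 0.31 for Acta2 on the log2 scale. The 7 members lay within 0.1 of no change, as did 43.6% of the 5495 genes with a mean in the same range, from 1050.4 to 15685. In that range 27.9% of genes were called. A p that misses the threshold does not show that 2 groups are equal, and changes below these bounds may exist.

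**Figure D2:**
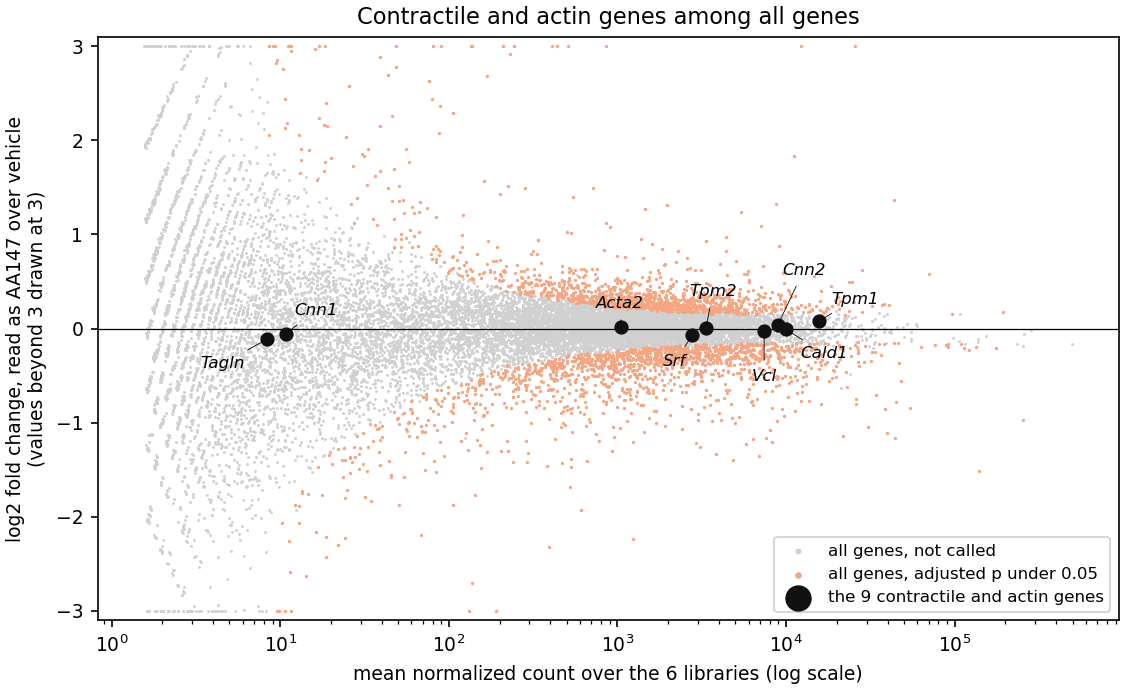
Each point is a gene of the authors' deposited table, with its mean normalized count on a log axis and its log2 fold change, read as AA147 over vehicle; orange genes had an adjusted p under 0.05. The 9 named genes, in black, lie along the line of no change, between -0.11 and 0.08. Of all tested genes, 20.2% were called.

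Some of the members' relatives were called. Among actins, Actb and Actg1, the cytoplasmic beta- and gamma-actin genes, held 83% and 16.4% of the summed level per kilobase of transcript, and Acta2 held 0.556%. Actg1 rose by a log2 fold change of 0.49 (SE 0.062, adjusted p 1.26e-13), and Actb lay at 0.15 (SE 0.060, adjusted p 0.0553) and was not called in the authors' deposited table. Actg2, a smooth muscle actin with a mean of 50.1, was not called, at 0.52 (SE 0.40, adjusted p 0.401). Acta1, the skeletal muscle actin, had a mean of 9.35 and a value of -0.29 (SE 0.72, adjusted p 0.843). The difference between Actg1 and Acta2 was 0.48 (95% interval 0.21 to 0.74). Such intervals treat the errors of a pair as independent although both genes come from the same libraries, and no p is given for them.

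Tagln2, a transgelin found outside muscle, held 99.9% of the level per kilobase of the 2 transgelins measured and rose by 0.50 on the log2 scale (SE 0.059, adjusted p 5.73e-15) per the authors' deposited table. Tagln could not be set against it, because the difference of 0.61 had a 95% interval from -0.86 to 2.07. Cnn2 and Cnn3 made up 51.4% and 48.5% of the calponin level per kilobase. Cnn3 fell by 0.17 on the log2 scale (SE 0.059, adjusted p 0.0197), and its difference from Cnn2 was -0.21 (95% interval -0.37 to -0.04). Tpm1 held 74.9% of the tropomyosin level per kilobase and Tpm2 10.7%. Calls numbered 0 of 4 tropomyosins, beside 20.2% of all genes tested. Tpm3 lay at -0.09 (SE 0.098, adjusted p 0.613) and Tpm4 at 0.01 (SE 0.087, adjusted p 0.950) per the authors' deposited table.

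Myosin II moves the filaments that the members build. Its chains gave 1 positive and 3 negative calls among 6 genes tested, beside 9.05% and 11.1% over all genes tested. The called genes encode light chains, and no difference between light and heavy chains was computed. Myh9 and Myh10, the abundant non-muscle heavy chains, lay at 0.13 (SE 0.075, adjusted p 0.233) and -0.03 (SE 0.085, adjusted p 0.847) per the authors' deposited table. The regulatory light chain genes Myl12a and Myl12b, relatives of Myl9, fell by 0.20 (SE 0.063, adjusted p 0.010) and 0.30 (SE 0.062, adjusted p 2.75e-05) on the log2 scale. Both genes have nearly the same coding sequence, so reads may be split between them and each value is uncertain. The essential light chain gene Myl6 fell by 0.49 (SE 0.085, adjusted p 2.1e-07), and its relative Myl6b, at 266 normalized counts per kilobase against 6006 for Myl6, rose by 0.46 (SE 0.13, adjusted p 0.00292) per the authors' deposited table. Myh11 and Myh14, with means of 5.25 and 3.97, had no adjusted p.

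**Figure D3:**
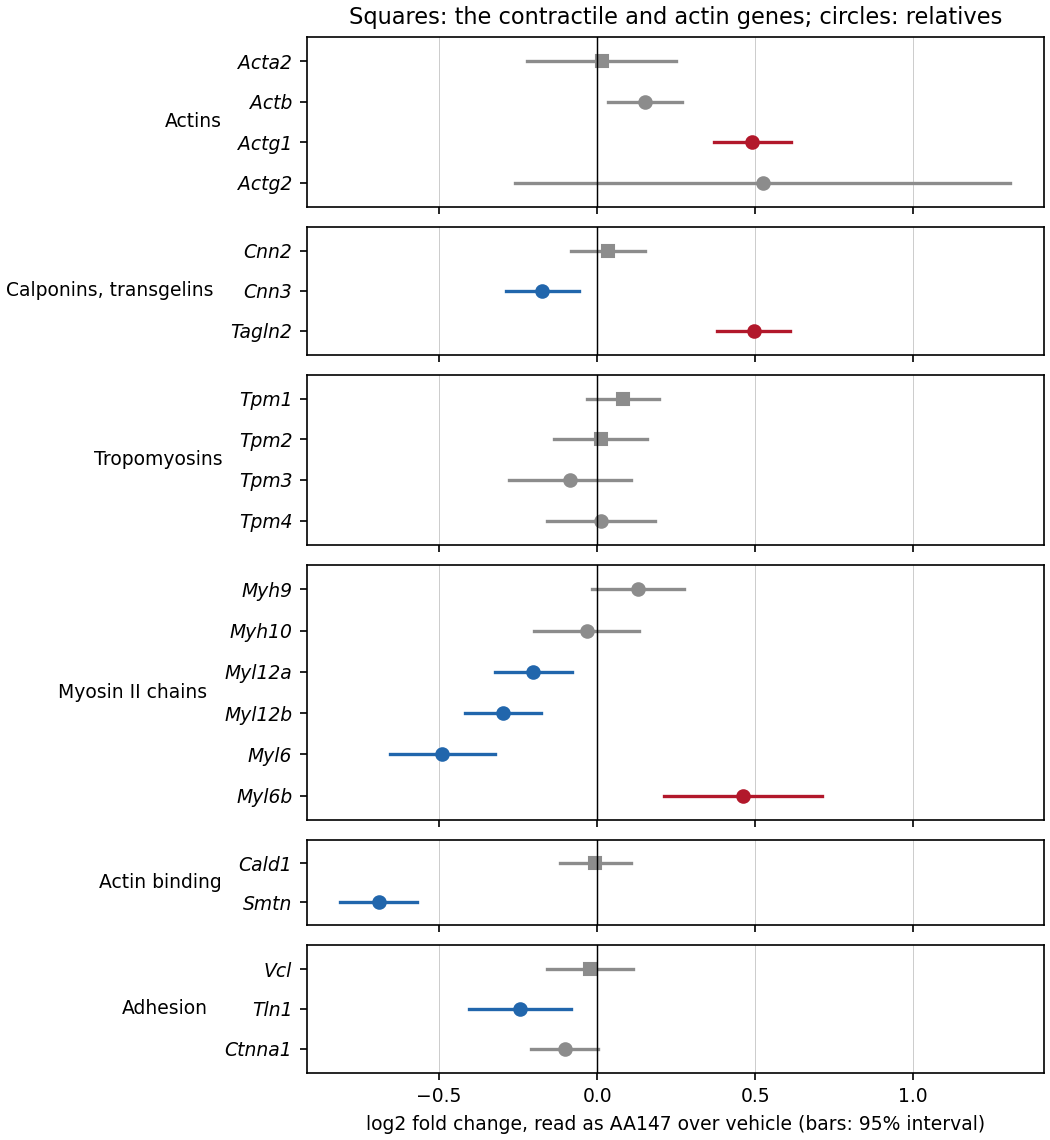
Log2 fold changes with 95% intervals, read as AA147 over vehicle, for the members (squares) and their relatives (circles) by family; red and blue mark an adjusted p under 0.05, grey none. Tagln, Cnn1 and Acta1, with wide intervals, are not drawn. The 6 members drawn sit near 0, with Actg1, Tagln2 and Myl6b to the right and Cnn3, Myl12a, Myl12b, Myl6, Smtn and Tln1 to the left.

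The cofactors and partners of SRF gave 1 positive and 3 negative calls among 10 genes tested, beside 9.05% and 11.1% over all genes tested. The median log2 fold change of the 10 was -0.10, beside 0.01 over all genes tested. Mrtfa and Mrtfb, the actin-regulated cofactors, were not called, at -0.15 (SE 0.069, adjusted p 0.126) and 0.13 (SE 0.13, adjusted p 0.546) per the authors' deposited table. Of the ELK factors, Elk3 fell by 0.23 on the log2 scale (SE 0.063, adjusted p 0.00197), while Elk1 lay at -0.05 (SE 0.085) and Elk4 at 0.15 (SE 0.17). Fhl2, a LIM-domain protein that binds SRF and is also its target, rose by 0.39 (SE 0.089, adjusted p 0.000188) per the authors' deposited table. Cebpb, a leucine zipper factor, fell by 0.48 (SE 0.090, adjusted p 2e-06). Klf4, a repressor of smooth muscle genes, had a value of -0.18 (SE 0.069) that was called at an adjusted p of 0.0481 and was lost under 6 of the 7 alternatives run, with -0.15 after subtraction of the trend. Scai, an inhibitor of MRTF, lay at 0.08 (SE 0.15) and Yap1, a coactivator that also responds to actin, at -0.15 (SE 0.075), and neither was called in the authors' deposited table.

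Other known SRF targets of the cytoskeleton moved both ways. Of 22 such genes with an adjusted p, 5 rose and 6 fell, beside 9.05% positive and 11.1% negative over all genes tested. The median of the 22 was 0.09. The largest changes were those of Smtn, which encodes smoothelin and fell by 0.69 (SE 0.062, adjusted p 1.8e-26), Actg1, Pdlim7 and Csrp2. Pdlim7, a PDZ and LIM protein of stress fibres, rose by 0.43 (SE 0.086, adjusted p 8.96e-06), and Csrp2, a cysteine-rich LIM protein, fell by 0.41 (SE 0.099, adjusted p 0.000415) per the authors' deposited table. Smtn shares 18.2% of its exon bases with the long noncoding RNA Gm11946 on the opposite strand, whose value was -0.64 (SE 0.090), and reads of the pair cannot be told apart without strand. Against Cald1, which also binds actin filaments, Smtn differed by -0.69 (95% interval -0.85 to -0.52). The large structural targets Flna, Zyx and Myh9 were among the 11 that were not called, Flna at 0.05 (SE 0.075, adjusted p 0.739) and Zyx at -0.02 (SE 0.084, adjusted p 0.920) per the authors' deposited table.

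Some of these called genes carry the same element as members that were not called. Among the called genes of these lists, 5 hold a CArG box in a RefSeq promoter window: Actg1 and Fhl2 rose, and Myl6, Lima1 and Filip1l fell. The called genes Egr1, Ier2, Csrp2 and Parva had no promoter entry under their symbol and were not searched. Lima1, an actin-bundling LIM protein, lay at -0.19 (SE 0.069, adjusted p 0.0294) and Filip1l at -0.18 (SE 0.068, adjusted p 0.0373) per the authors' deposited table. Fermt2, Acta1 and Egr2 also hold at least 1 box and were not called. The stretches of Actg1, Fhl2 (before a pair of starts) and Myl6 are shown for comparison with those of Srf, Cnn2 and Vcl, from the same table and build and again with the boxes in capitals.
Actg1, chr11:120348566-120348595, minus strand: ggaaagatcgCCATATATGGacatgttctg
Fhl2, chr1:43196838-43196867, minus strand: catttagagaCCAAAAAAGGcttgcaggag
Fhl2, chr1:43163973-43164002, minus strand: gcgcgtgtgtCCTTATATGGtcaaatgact
Myl6, chr10:128493040-128493069, minus strand: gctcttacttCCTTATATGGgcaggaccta
The box in the second stretch of Fhl2 has the same 10 letters as that of Myl6, and these genes had values of 0.39 and -0.49. The 3 genes shown were picked after their values were seen, so nothing about the element can be drawn from them.

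**Figure D4:**
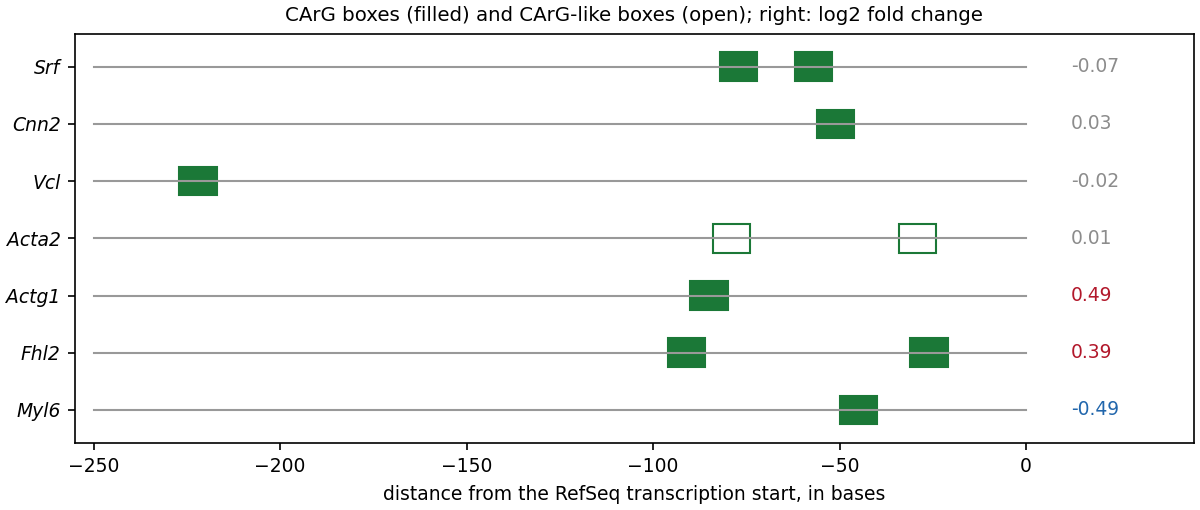
Position of CArG boxes (filled) and CArG-like boxes (open) in the 250 bases before the RefSeq start, with the gene's log2 fold change at the right (red and blue: adjusted p under 0.05). The boxes of Fhl2 belong to a pair of separate starts; among the genes drawn, those with a box had values near 0 (Srf, Cnn2, Vcl), above it (Actg1, Fhl2) and below it (Myl6).

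The immediate early targets, which SRF drives with ELK factors, gave 1 positive and 2 negative calls among 8 genes. Over all genes tested, 9.05% were called positive and 11.1% negative. Egr1 fell by 0.77 (SE 0.13, adjusted p 5.72e-08) and Ier2 by 0.35 (SE 0.099, adjusted p 0.00385), and Junb rose by 0.42 (SE 0.094, adjusted p 0.000102) per the authors' deposited table. Fos, with a mean of 18.9, was not called, at 0.61 (SE 0.52, adjusted p 0.465). The genes of differentiated smooth muscle were mostly low. Of 12 named, 9 were in the authors' deposited table and 6 had an adjusted p. Of these 6, 1 was called positive, 1 negative and 4 were not called, beside the same 9.05% and 11.1% over all genes tested. Des, the intermediate filament desmin, rose by 0.66 (SE 0.18, adjusted p 0.00288) at a mean of 217, and Smtn fell.

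Among 16 adhesion partners of vinculin with an adjusted p, 1 rose and 2 fell, with a median of -0.04. Calls made up 20.2% of all genes tested and 27.9% of genes with means from 1050.4 to 15685, the range of the abundant members. Tln1 encodes talin, which recruits vinculin to integrins, and fell by 0.24 (SE 0.083, adjusted p 0.0204) per the authors' deposited table. Its value was -0.19 and no longer called after subtraction of the trend. Parva, the adhesion protein parvin, fell by 0.18 (SE 0.059, adjusted p 0.0136), and Lims1, its LIM-domain partner, rose by 0.30 (SE 0.099, adjusted p 0.0179) per the authors' deposited table, a call that was lost at 0.21 with the trend subtracted. Ctnna1, the cadherin partner related to vinculin, lay at -0.10 (SE 0.054, adjusted p 0.180).

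The regulators that set actin polymerisation, and so the cofactors of SRF, gave 5 positive and 0 negative calls among 17 genes, with a median of 0.17, beside 9.05% positive and 11.1% negative calls over all genes tested. Cfl2, a cofilin that severs filaments, rose by 0.34 (SE 0.082, adjusted p 0.000593), and Limk1 and Ssh1, the kinase and phosphatase that act on cofilin in opposite directions, rose by 0.24 (SE 0.071, adjusted p 0.00641) and 0.30 (SE 0.104, adjusted p 0.0272) per the authors' deposited table. Rhob, a small GTPase, rose by 0.24 (SE 0.077, adjusted p 0.0132), and the fifth call was Ppp1cb, the catalytic subunit of myosin phosphatase, at 0.21 (SE 0.070, adjusted p 0.0197). Rhoa lay at -0.0049 (SE 0.069) and Cfl1 at 0.01 (SE 0.063) per the authors' deposited table. Over the 81 genes of these lists that had an adjusted p and are not members, 15 were called positive and 15 negative, with a median of 0.01.

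**Figure D5:**
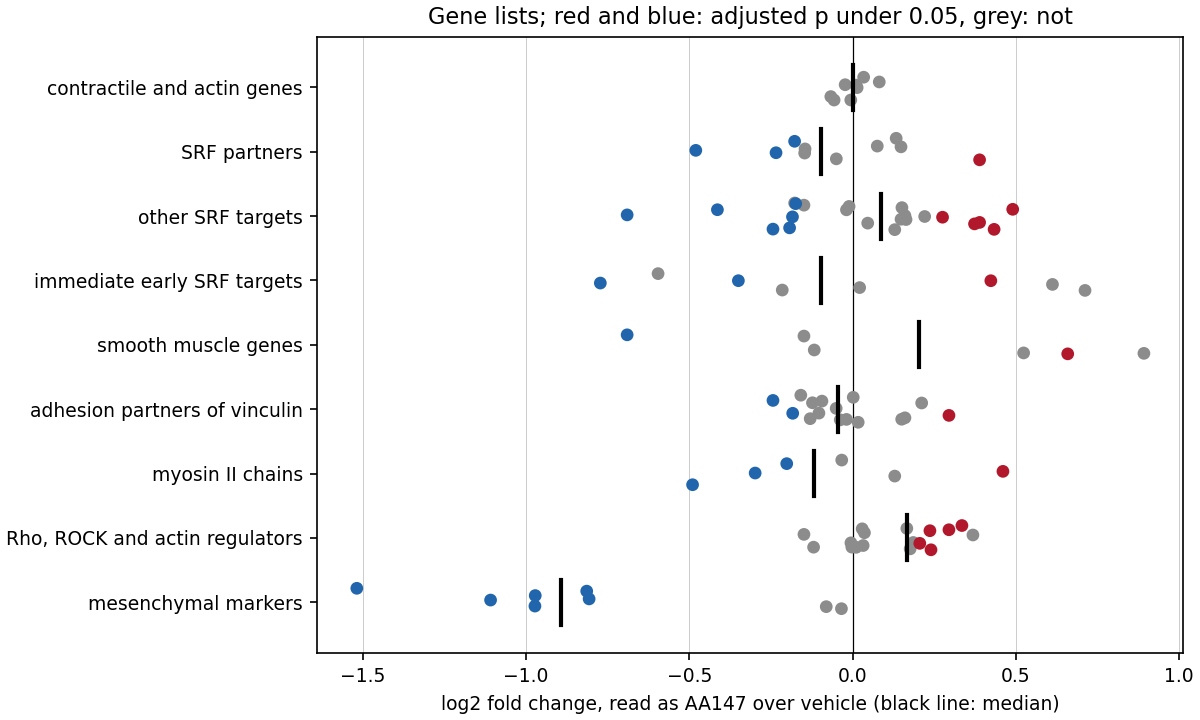
Each point is a gene with an adjusted p, by list, at its log2 fold change, read as AA147 over vehicle; red and blue mark an adjusted p under 0.05 and the black line is the median. The contractile and actin genes cluster near 0, the other SRF lists spread to both sides, and 6 of 8 mesenchymal markers lie below -0.8.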

How the data were processed

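Per the submitters' processing notes, the authors used DESeq2 and build mm9. The aligner, read counter, annotation and filters are not given in the sources used here. The deposited level of a gene is a mean normalized count, a signal over all 6 libraries. The deposited log2 fold change comes with its SE, and the deposited score is the ratio of both. Each deposited p-value has an adjusted value beside it, and this equalled a Benjamini-Hochberg adjustment over 13597 genes. The other 2875 genes, with means of at most 8.41, had no adjusted p and no call. All members and lists were chosen with earlier results of these data known. The genes named are the members, their paralogs, the SRF partners, and in each other list the called genes with the 4 largest changes and a mean of at least 100. Others named were chosen after their values were seen. Reference genes served for centring, and their single values are not reported here. Intervals (95%) are the value plus or minus the normal quantile times the SE. Implied group levels assume equal groups of 3 libraries. Transcript length and GC content came from canonical transcripts of GENCODE M39 (GRCm39), which covered 95.1% of genes above that mean. Promoters came from the RefSeq table for GRCm38.p6, whose coordinates belong to that build and not to the build of the counts. The stretch printed is 60 bases, or 30 where GENCODE transcripts cover it. Code was tested on simulated data. Tools were statsmodels 0.14.6 (trend), SciPy 1.17.1 (normal tails) and pandas 2.3.3.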

Additional observations from a re-analysis of the deposited data

How the results depend on the processing

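No paired analysis was possible because values by library were not analysed here, and for the same reason leaving out each replicate in turn was not run. The count of called members was 0 under each of the 7 alternatives run: a threshold of 0.01, adjustment over all genes with a p, Bonferroni adjustment, both centrings, trend subtraction and a null interval of 0.2. The threshold of 0.01, Bonferroni adjustment and the null interval are stricter by construction, so they could only give 0 members. Adjustment over all genes with a p raised the lowest adjusted p of the members from 0.366 to 0.415. Only the centrings and the trend changed the fold changes themselves. Of 61 member values, those under the threshold, both adjustments and the null interval equal the deposited ones and could not change sign. Among the values with centring or the trend, 2 changed sign, and neither was called. These were Acta2, at -0.018 with the trend subtracted, and Tpm2, at -0.0025 when centred on genes with a mean of at least 100. Of the 30 called genes in the other lists (15 positive, 15 negative), 18 were called at 0.01 (10 and 8), 9 with Bonferroni adjustment (4 and 5) and 7 against the null interval (3 and 4), which are stricter by construction. The 12 reference genes used for centring had a median of -0.0020. The trend could not be fitted for Tagln and Cnn1, whose low means also limit their precision.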

Other observations

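Across the authors' deposited table, 147 tested genes held a CArG box in a RefSeq promoter window of 300 bases, and 15 of these were called positive and 26 negative. That is 27.9% called, beside 21% of the 9440 genes with a promoter and no box. With a mean of at least 100, it was 33.1% of 118 genes and 23.6% of 7865. The median log2 fold change was -0.04 with a box and 0.01 without one. This is a description of genes in the same libraries, with no test.

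Most of the mesenchymal markers, which often accompany Acta2 in myofibroblasts, fell while Acta2 was not called. Of 8 genes tested, 6 were called negative and 0 positive, beside 11.1% and 9.05% over all genes tested. The median of the 8 in the authors' deposited table was -0.89. Col1a1 and Col3a1 encode fibrillar collagens, with values of -1.52 (SE 0.066) and -1.11 (SE 0.057), and the collagen gene Col1a2 and the PDGF receptor gene Pdgfrb both had a value of -0.97 (SE 0.053 and 0.074) per the authors' deposited table. Thy1 and Vim, at -0.03 (SE 0.075) and -0.08 (SE 0.056), were not called. Slc1a3, a glutamate transporter listed as an astrocyte marker, fell by 1.30 on the log2 scale (SE 0.089, adjusted p 2.39e-45), Tmem119, listed as a microglia marker, fell by 0.49 (SE 0.11, adjusted p 0.000214), and Tubb3, the neuron marker with the highest mean here, rose by 0.43 (SE 0.092, adjusted p 5.67e-05). The other neuron markers with a value were negative and not called. Eno2 lay at -0.30 (SE 0.29, adjusted p 0.536) and Slc17a7 at -1.98 (SE 1.26, no adjusted p). The part of these markers in the values of the contractile genes was not tested.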
